A study of Mus musculus with 12 samples.

Results

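The Hox genes of the 4 mouse clusters were taken from the table by their symbols (Hox, a cluster letter from a to d, and a paralogue number). Members were picked by symbol alone, but the set was chosen with earlier results of these data known. This gave 38 of the 20308 genes listed, namely 11 of HoxA, 10 of HoxB, 9 of HoxC and 8 of HoxD. Of these, 27 had enough counts to be tested among the 12761 genes tested, and 3 of the other 11 (Hoxb1, Hoxc5 and Hoxc12) were at 0 in all libraries. RNA was measured by poly-A selected RNA-seq in urogenital sinus epithelium, which lines the part of the embryo that becomes the bladder neck, urethra and prostate, in C57BL/6J mouse embryos at E15.5 (embryonic day 15.5). The 4 Control libraries came from wildtype embryos. In the embryos behind the 8 Dnmt1cKO libraries a Shh Cre driver deleted Dnmt1, so that the deletion was directed to cells that express, or descend from cells that expressed, Shh, as this epithelium does. The tissue was freed from stroma by trypsin, and embryos were pooled into a lysate per harvest, so no library stands for a single embryo. The comparison asks which Hox transcripts differ in this epithelium once Dnmt1 is deleted.

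Hox genes encode homeodomain transcription factors that give cells of the body axis their position. Within each cluster the genes lie in the order in which they are used along the axis, with low paralogue numbers used towards the head and high numbers towards the tail, and genes of the same number in different clusters are close copies (paralogues). Group 13 genes mark the hind end, where Hoxa13 and Hoxd13 are needed for the hindgut, the genital tubercle and the urogenital tract, and Hoxb13 is known from the prostate. Dnmt1 encodes the maintenance DNA methyltransferase, which keeps CG dinucleotides methylated when DNA is replicated.

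The 3 sequences below are the 250 bases before the transcript start of Hoxd13, the member that passed the test, of Hoxd12, its neighbour in the cluster, and of Hoxa13, its paralogue. They are shown because CG dinucleotides are what Dnmt1 maintains. They were taken from RefSeq (build GRCm38.p6) and are written in the direction of the gene, with each CG in capitals.
Hoxd13: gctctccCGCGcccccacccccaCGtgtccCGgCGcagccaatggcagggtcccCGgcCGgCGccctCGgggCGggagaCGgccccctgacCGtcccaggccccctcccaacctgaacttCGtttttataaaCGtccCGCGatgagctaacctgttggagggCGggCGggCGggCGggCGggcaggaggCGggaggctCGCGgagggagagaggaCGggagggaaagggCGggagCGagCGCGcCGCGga
Hoxd12: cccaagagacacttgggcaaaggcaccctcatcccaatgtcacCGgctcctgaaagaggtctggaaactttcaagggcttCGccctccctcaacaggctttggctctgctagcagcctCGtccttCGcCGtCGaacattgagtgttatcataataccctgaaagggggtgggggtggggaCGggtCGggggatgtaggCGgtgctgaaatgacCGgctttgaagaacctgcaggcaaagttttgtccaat
Hoxa13: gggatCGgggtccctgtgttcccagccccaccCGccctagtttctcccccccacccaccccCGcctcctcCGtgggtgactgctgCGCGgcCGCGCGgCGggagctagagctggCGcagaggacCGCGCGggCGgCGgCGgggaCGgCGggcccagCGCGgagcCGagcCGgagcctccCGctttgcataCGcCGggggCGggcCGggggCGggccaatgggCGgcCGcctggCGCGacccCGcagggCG
The Hoxd13 window (chr2:74667975-74668224, plus strand) held 31 CG. Only 5.19% of the 32851 RefSeq promoter windows of this length held as many or more, and their median was 6. The Hoxa13 window (chr6:52260881-52261130, minus strand) held 35 CG, a number reached in 2.97% of all windows, and the Hoxd12 window (chr2:74674763-74675012, plus strand) held 10, reached in 37.8%. CG reads the same on both strands, and occurrences do not overlap. Windows were found for 21 of the 38 Hox genes, in 23 windows that held 2 to 35 CG with a median of 13. Methylation was not measured in these libraries, and the counts describe the letters of these windows only.

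The libraries differed in depth and in the check of the deleted gene. Total expected counts were 7577706 in Control 1, 2915193 in Control 2, 1613514 in Control 3 and 543591 in the library labelled Control 4, against 4007533 to 11970907 in Dnmt1cKO, and a single count stood for 0.123, 0.337, 0.754 and 2.84 CPM (counts scaled to a library total of 1e+06) in these Controls. At least 1 count was found for 31, 23, 21 and 14 Hox genes in the 4 Controls in the same order, and for 14 to 32 in Dnmt1cKO. Dnmt1 was at 164, 114 and 237 CPM in Controls 1 to 3 and at 22.8 to 97.0 CPM in Dnmt1cKO. The library labelled Control 4 held 1 count of it (2.84 CPM, exact Poisson 95% interval 0.072 to 15.8), which by itself goes against its label. The difference in Dnmt1 (log2 fold change −1.29 ± 0.63 SE, edgeR with Benjamini-Hochberg adjusted p = 0.284) did not pass the test. All 4 germline genes kept as a check, which are methylated at their promoters in somatic cells, rose in Dnmt1cKO, with Taf7l at 0 to 0.754 CPM in the Controls and 149.7 to 427.2 CPM in Dnmt1cKO (log2 fold change 10.07 ± 0.85, edgeR adjusted p = 1.88e-09). The library labelled Control 4 lay in this Control range of Taf7l, below every Dnmt1cKO library, which goes with its label. In bulk RNA, fewer cells of a type and less RNA per cell cannot be told apart. Where nothing says that libraries came from separate harvests, the p-values measure only the spread between these libraries, which may be technical.

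In Control epithelium, Hox expression was led by members of the middle and of the hind end of the clusters. Levels were compared between genes as CPM per kilobase of the longest annotated coding transcript. Hoxa10 had the highest Control median, 31.9 CPM per kilobase, followed by Hoxb7 with 30.9 and Hoxd13 with 23.9. Hoxa10 acts in the lower trunk and the reproductive tract, and Hoxb7 in the trunk and kidney ducts. The order of these 3 did not exceed their spread, since the 4 Controls ranged from 6.76 to 112 for Hoxa10, from 6.61 to 227 for Hoxb7 and from 9.41 to 39.5 for Hoxd13. Hoxa7 (19.2) and Hoxa9 (18.2) came next, and no other Hox gene had a median above 10 CPM per kilobase. Dividing by the median coding transcript length, a choice added after seeing the data, put Hoxa7 first and Hoxd13 at rank 5.

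Ordered by paralogue number, the median Control sums over the clusters peaked in groups 7, 10, 9 and 13. The median summed level was 60.5 CPM per kilobase for group 7, 48.8 for group 10, 35.4 for group 9 and 34.9 for group 13. Groups 11 and 12, which lie between the high groups 10 and 13, were lower, at 8.18 and 1.31. The head-end groups 1 and 2 were at 0.0905 and 3.82. In these medians, paralogue number and level did not run in a single slope, since group 13 stood above groups 11 and 12. Its level came mostly from Hoxd13 (23.9 CPM per kilobase) with less from Hoxa13 (6.55) and Hoxb13 (3.63). The order of the high groups did not exceed their spread. The 4 Controls ranged from 40.9 to 227 for group 7 and from 6.76 to 112 for group 10. They ranged from 0 to 46.0 for group 9 and from 10.4 to 57.4 for group 13. Group 11 ranged from 1.24 to 19.4 and stood above group 13 in Control 3, through Hoxc11 (38.5 CPM).

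By cluster, HoxA (chr6:52155590-52260880, GRCm38), HoxB (chr11:96194316-96368256) and HoxD (chr2:74668310-74765142) were all detected in every library, while HoxC (chr15:102921103-103036852) was close to silent. HoxC summed to 11.2, 3.37, 83.7 and 0 CPM in the 4 Controls and to 0.2 to 14.6 CPM in Dnmt1cKO. Its highest Control median was that of Hoxc8, a trunk gene, with levels of 0, 2.70, 9.80 and 0 CPM. Hoxc8 was at 0 in 7 of 8 Dnmt1cKO libraries and at 0.516 CPM in the other. Only Hoxc4 and Hoxc10 of the 9 HoxC members had enough counts for the test.

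The Controls did not share a common pattern across the clusters. HoxA summed to 233, 253, 98.0 and 412 CPM in the 4 Controls, and HoxB to 131, 101, 715 and 51.2 CPM. Control 3 was highest of all 12 libraries for 8 of the 27 tested members and at 0 for 9, and the library labelled Control 4 was highest for 3 and at 0 for 13. Hoxb7, the leading HoxB gene, shows this spread, with 61.1, 18.5, 292.5 and 8.53 CPM in the Controls. Control 3 also had the highest sum of stromal markers, 12995 CPM against 6231, 6615 and 1823 CPM in Control 1, Control 2 and the library labelled Control 4, and its epithelial markers Foxa2 and Grhl2 were at 0. The part of stromal RNA in these Hox levels was not tested.

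Among the 27 tested Hox genes, 1 rose in Dnmt1cKO, Hoxd13, and none fell. Over all genes tested, 1.03% rose and 1.55% fell. At an unadjusted edgeR p under 0.05, 2 Hox genes were higher (Hoxd13 and Hoxd11) and 1 was lower (Hoxb4), where 8.19% and 9.54% of all genes tested were. DESeq2 called Hoxd13 higher and Hoxb4 lower, and 3 higher and 4 lower members had an unadjusted p under 0.05 in it. limma-voom called none, with 1 such member in each direction. With a single call among 27, the count by itself does not set the Hox genes apart from other genes. The median log2 fold change of the 27 was −0.67, with 10 above 0, against a median of 0.22 and 57.3% above 0 over all genes tested. This low median rested on Control 3, since without that library it was 0.03 beside 0.31 for all genes.

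**Figure D1:**
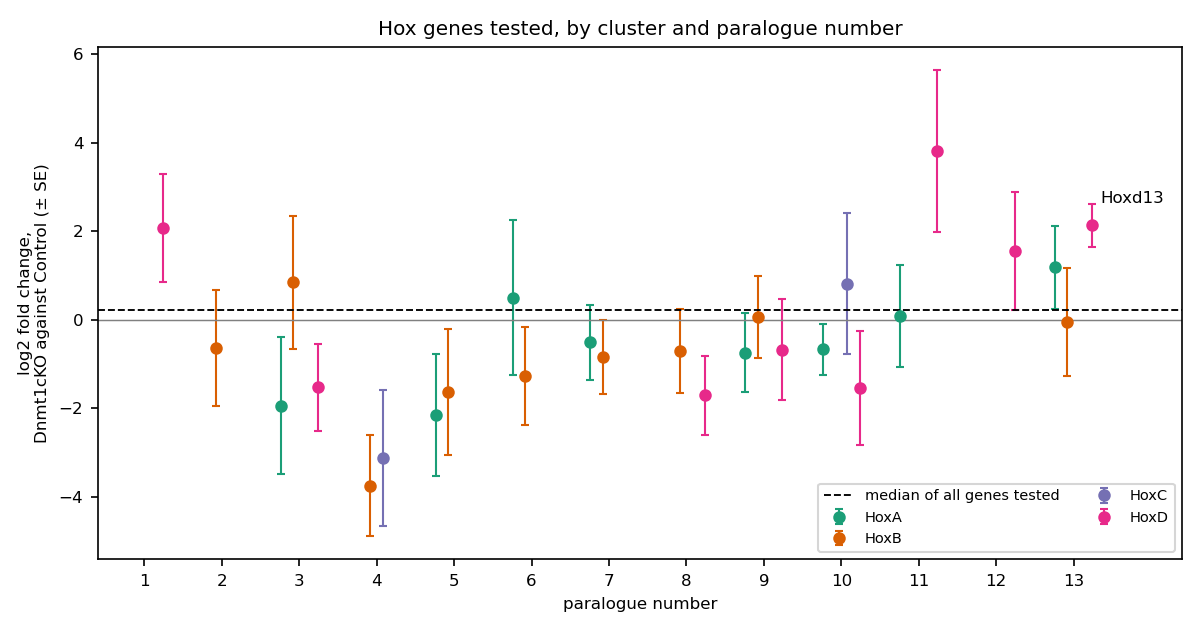
Log2 fold change of each of the 27 tested Hox genes in Dnmt1cKO against Control (vertical axis, ± SE) by cluster and paralogue number (horizontal axis), with a dashed line at the median of all genes tested, 0.22. A reader should see the HoxD genes 11 to 13 above the line, Hoxd13 with the shortest error bar of the 3, and most members of groups 3 to 10 below it.

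Split by paralogue number, the hind-end groups differed in direction from the rest when all libraries were used. Of the 6 tested members of groups 11 to 13, 5 had a log2 fold change above 0, with a median of 1.37 (4 of 6 with RLE factors and all 6 with library totals, since Hoxa11 and Hoxb13 lie near 0). Groups 9 and 10 had 2 of 6 above 0 (median −0.67), groups 5 to 8 had 1 of 8 (median −1.06), and groups 1 to 4 had 2 of 7 (median −1.53). Without Control 3 and the library labelled Control 4, groups 11 to 13 had 4 of 6 above 0 with a median of 1.16. Groups 9 and 10 then had 2 of 6 with a median of −0.59. Groups 5 to 8 moved to 4 of 8 (median −0.06) and groups 1 to 4 to 4 of 7 (median 0.10), so that these counts were near that of groups 11 to 13. The medians of groups 9 to 13 thus kept their direction without these Controls, although that of groups 9 and 10 was 0.11 with a block by code. The low medians of groups 1 to 8 rested mainly on Control 3. Without it alone they were −0.35 for groups 1 to 4 and 0.03 for groups 5 to 8. Without the library labelled Control 4 alone they were −1.03 and −1.35. In limma-voom groups 1 to 4 had 4 of 7 above 0 with a median of 0.40, beside 4 of 6 with a median of 1.38 in groups 11 to 13. Hoxd13 alone of the 6 members passed the test.

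Hoxd13 (ENSMUSG00000001819.4, chr2:74668310-74671599, plus strand, GRCm38) is the last gene of the HoxD cluster and patterns digits and the genital tubercle. It stood at 98.0, 59.0, 23.4 and 59.7 CPM in the 4 Controls, and its lowest, median and highest Dnmt1cKO levels were 211, 254 and 337 CPM. Every Dnmt1cKO library was above every Control, as for 2.59% of all genes tested. Means were 60.0 ± 30.5 CPM (SD, n = 4) in Control and 265 ± 52.8 CPM (SD, n = 8) in Dnmt1cKO. Hoxd13 rose by a log2 fold change of 2.13 ± 0.48 (SE), or 4.39-fold (edgeR adjusted p = 0.013). These levels rest on 797, 175, 31 and 21 counts in the Controls and on 805 to 4374 in Dnmt1cKO. The exact Poisson 95% interval of the library labelled Control 4 ran from 37.0 to 91.3 CPM, below the lowest Dnmt1cKO interval bound of 198 CPM.

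The difference in Hoxd13 was of similar size when the doubtful libraries were left out: 1.81 without Control 3 and the library labelled Control 4 (edgeR adjusted p = 0.0136), and 1.85 when Dnmt1cKO 2 was left out too (edgeR adjusted p = 0.00778). It lost the call under another scaling (1.74, edgeR with RLE factors, adjusted p = 0.0501) and in limma-voom (1.86, adjusted p = 0.106). The 4 values of a code in the sample descriptions that occur in both groups give a comparison within each, on the scale of log2(CPM + 2). Dnmt1cKO was above Control by 1.76, 1.89, 3.51 and 2.18 at the codes 4, 5, 6 and 7. The median over all genes of the same difference was −0.03, 0.18, 1.006 and 1.83 at these codes, so that the margin of Hoxd13 over the other genes was narrowest at code 7, that of the library labelled Control 4. Summed stromal markers had a median of 2269 CPM in Dnmt1cKO (491 to 7353) and 6423 CPM in Control (1823 to 12995), with 18 of 19 tested markers below 0 and none passing the test. With the stromal level as a covariate, Hoxd13 rose by 1.88 (edgeR adjusted p = 0.0322).

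**Figure D2:**
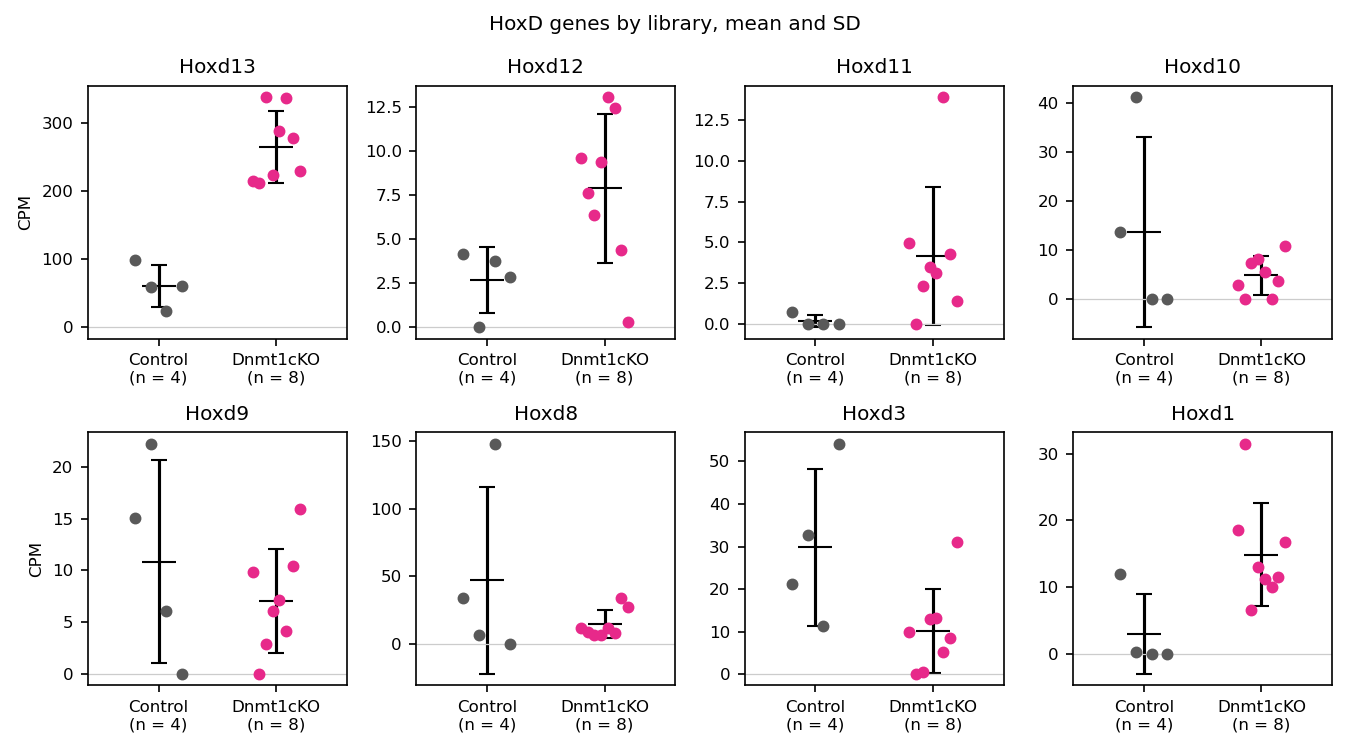
Levels of the 8 HoxD genes in CPM (vertical axis, linear and scaled for each gene) in Control and Dnmt1cKO (horizontal axis), with a dot for each library and black lines for the mean ± SD. A reader should see that the groups are apart for Hoxd13 (23.4 to 98.0 against 211 to 337 CPM) and overlap for the other 7 genes.

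Hoxd12 (chr2:74675013-74677705) and Hoxd11 (chr2:74679557-74687016), the next genes of the cluster, which act with Hoxd13 in limb and genital patterning, were low in all libraries. Hoxd12 was at 4.18, 0, 3.77 and 2.84 CPM in the Controls and at 0.285, 8.51 and 13.1 CPM (lowest, median and highest) in Dnmt1cKO. All but 1 Dnmt1cKO library were above all Controls, and the difference (1.56 ± 1.34, edgeR adjusted p = 0.588) did not pass the test. The library labelled Control 4 held 1 count of Hoxd12, with an exact Poisson interval (0.072 to 15.8 CPM) that covers every Dnmt1cKO level. How many of all genes were as nearly apart was not counted. Hoxd12 differed by 0.442, 2.51, 1.385 and 0.298 at the codes 4, 5, 6 and 7, on the scale of log2(CPM + 2). At code 7 this was below the median over all genes tested, 1.83. Hoxd11 was at 0.738 CPM (6 counts) in Control 1 and at 0 in the other 3 Controls, and at 0, 3.33 and 13.9 CPM in Dnmt1cKO. The differences of Hoxd11 at the codes 4, 5, 6 and 7 were 0.66, 1.46, 1.37 and 1.81, on the same scale. The medians over all genes tested were −0.03, 0.18, 1.006 and 1.83, so that Hoxd11 was not above the median gene at code 7. The log2 fold change of Hoxd11, 3.81 ± 1.83, had an unadjusted p of 0.0451 and an edgeR adjusted p of 0.269. In the library labelled Control 4 a level under 8.53 CPM, the value of 3 counts, could not be detected, so that 0 there does not separate Hoxd11 from the Dnmt1cKO median.

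Further into the cluster the values turned the other way without passing the test. Hoxd10, a gene of the lower trunk and hindlimb, was at 13.8, 41.1, 0 and 0 CPM in the Controls and at 0 to 10.8 CPM in Dnmt1cKO, with a median of 4.63 (−1.54 ± 1.29, edgeR adjusted p = 0.574). Hoxd9 was at 15.1, 22.3, 6.03 and 0 CPM and at 0 to 15.97 CPM, with a median of 6.60 (−0.67 ± 1.15, edgeR adjusted p = 0.813). Hoxd8 was at 33.7, 6.41, 148 and 0 CPM and at 6.71 to 33.9 CPM, with a median of 10.2 (−1.71 ± 0.90, edgeR adjusted p = 0.324). All 3 genes overlapped between the groups, and without Control 3, its highest library, Hoxd8 stood at 0.03.

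The remaining HoxD genes, which lie at the head end of the cluster, are given although the rule for named genes did not take them. Hoxd3, which helps to shape the neck vertebrae, was at 21.3, 32.7, 11.3 and 54.0 CPM in the Controls and at 0.224 to 31.1 CPM in Dnmt1cKO, with a median of 9.22 (−1.53 ± 0.99, edgeR adjusted p = 0.447). Hoxd1 (chr2:74762980-74765142), known from sensory neurons, was at 12.05, 0.337, 0 and 0 CPM in the Controls and at 6.55 to 31.4 CPM in Dnmt1cKO, with a median of 12.3 (2.07 ± 1.22, edgeR adjusted p = 0.394). Control 1 decided this value: it alone of the Controls overlapped Dnmt1cKO, and without it Hoxd1 was called (6.17, edgeR adjusted p = 0.023). Leaving out Control 1 also raised the calls over all genes, from 132 higher and 198 lower to 657 and 494. The difference at code 4, which is that of Control 1, was −0.72, against 2.68, 2.73 and 2.86 at the codes 5, 6 and 7. Over all genes tested the medians were −0.03 at code 4 and 0.18, 1.006 and 1.83 at the codes 5, 6 and 7.

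The make-up of the HoxD cluster, as the share of its counts taken by each gene within a library, does not depend on scaling between libraries. Hoxd13 took 49.3%, 36.5%, 12.2% and 51.2% of HoxD counts in the 4 Controls (Wilson 95% intervals 46.9 to 51.7, 32.3 to 40.9, 8.7 to 16.7 and 36.5 to 65.7). In Dnmt1cKO its share was 68.9% at the lowest, 80.2% at the median and 91.1% at the highest, so the groups did not overlap. In Control 3 the larger share was that of Hoxd8, 76.9%, and in the library labelled Control 4 Hoxd3 took 46.3%. The largest share of any other HoxD gene in a Dnmt1cKO library was 12.1%, for Hoxd1.

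**Figure D3:**
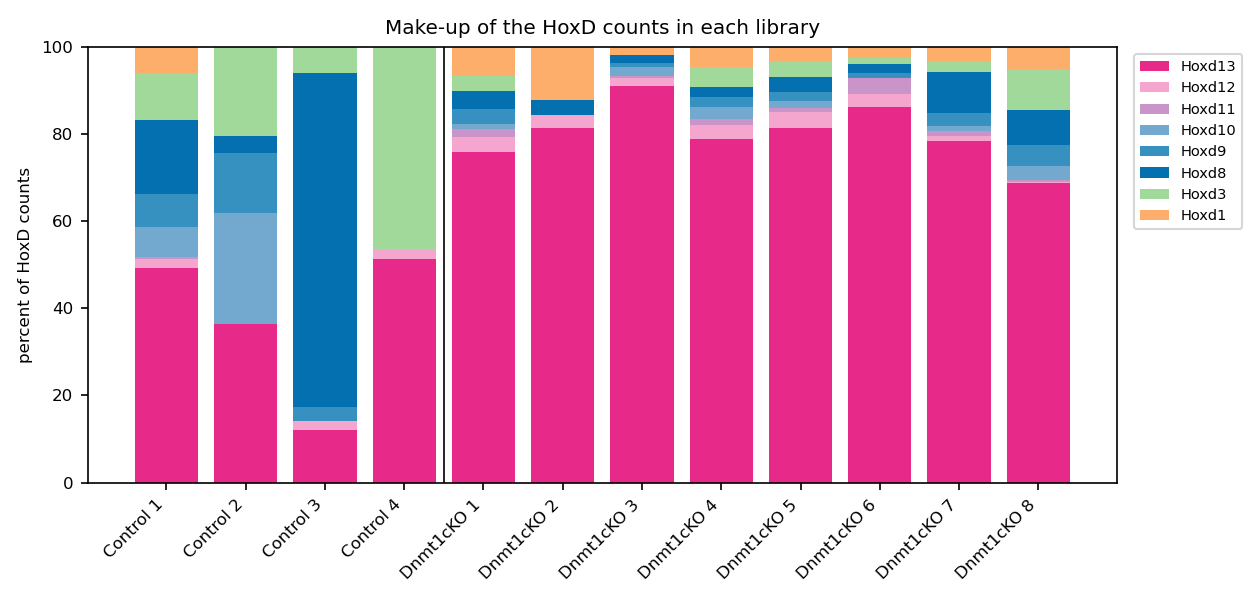
Share of the HoxD counts of each library (vertical axis, percent) taken by each of the 8 HoxD genes, as stacked bars for the 4 Control and 8 Dnmt1cKO libraries (horizontal axis). A reader should see Hoxd13 filling 68.9% to 91.1% of each Dnmt1cKO bar, against 12.2% to 51.2% of the Control bars, whose remainder differs from library to library.

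The HoxD cluster as a whole followed its largest member. HoxD summed to 199, 162, 192 and 117 CPM in the 4 Controls and to 259 to 391 CPM in Dnmt1cKO, with no overlap. As a share of all Hox counts of a library, HoxD took 34.7%, 31.2%, 17.7% and 20.1% in the Controls and 42.5% to 66.0% in Dnmt1cKO. Total Hox expression did not separate the groups, at 519 to 1089 CPM in Control and 392 to 812 CPM in Dnmt1cKO. Per kilobase, Hoxd13 moved from the third highest median in Control to the highest in Dnmt1cKO, at 102 CPM per kilobase (85.0 to 136), ahead of Hoxb7 with 43.3 (0.174 to 96.1). Against Hoxa10, the leading Control gene, the ratio of counts was 1.13, 0.768, 1.35 and 0.208 in the Controls and 2.62 to 4.91 in Dnmt1cKO, a ratio that was chosen after the values were seen.

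The other group 13 genes did not pass the test. Hoxa13 (chr6:52257694-52260880, minus strand), which is needed with Hoxd13 at the hind end, was at 25.7, 29.7, 2.26 and 5.69 CPM in the Controls. In Dnmt1cKO its lowest, median and highest levels were 0.224, 40.7 and 57.3 CPM. All Dnmt1cKO libraries but Dnmt1cKO 2 were above all Controls, and the log2 fold change was 1.19 ± 0.93 (edgeR adjusted p = 0.547). Hoxb13 was at 15.98, 13.15, 0 and 2.84 CPM in the Controls and at 0, 9.77 and 14.7 CPM (lowest, median and highest) in Dnmt1cKO, with a log2 fold change of −0.05 ± 1.23 (edgeR adjusted p = 0.99) whose sign turned with the scaling. Summed over the clusters, group 13 stood at 34.9 CPM per kilobase in the median Control (10.4 to 57.4) and at 125 in Dnmt1cKO (85.1 to 163), most of it from Hoxd13. Hoxc13 was found only in Dnmt1cKO 5, at 0.351 CPM (4 counts). At the codes 4, 5, 6 and 7, Hoxa13 differed by 0.55, 0.09, 3.52 and 2.46, beside medians over all genes tested of −0.03, 0.18, 1.006 and 1.83. Whether the difference in Hoxd13 exceeds that in Hoxa13 or Hoxb13 was not tested.

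In HoxA, the leading gene Hoxa10 was at 86.6, 76.9, 17.3 and 287 CPM in the Controls and at 56.6 to 87.6 CPM in Dnmt1cKO, with a median of 72.3 (−0.67 ± 0.58, edgeR adjusted p = 0.590). The 8 Dnmt1cKO libraries lay within a narrow range for this gene, inside that of the Controls, and without the library labelled Control 4 the log2 fold change was 0.32. Of the 8 tested HoxA members, 3 had a log2 fold change above 0, from −2.15 for Hoxa5, a gene of lung and neck, to 1.19 for Hoxa13. Hoxa11, a gene of uterus and forelimb, had a log2 fold change of 0.09 whose sign turned with the scaling. The annotated body of Hoxa3 overlaps those of Hoxa4, Hoxa5 and Hoxa6, and 5 HoxC genes overlap each other in the same way, and whether counting used strand is not given, so the division of reads among them is uncertain.

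In HoxB, Hoxb4 had the lowest unadjusted p of the members below 0. Hoxb4 (chr11:96318267-96321638, plus strand), known from blood stem cells, was at 3.20, 0, 130 and 31.3 CPM in the Controls. It was at 0, 3.15 and 6.04 CPM (lowest, median and highest) in Dnmt1cKO, so the groups overlapped through Controls 1 and 2. Its log2 fold change was −3.75 ± 1.137 (unadjusted p = 0.00229, edgeR adjusted p = 0.0662). This value rested on the 2 shallowest Controls: it was −1.82 without Control 3 (edgeR adjusted p = 0.600) and 0.94 without both (edgeR adjusted p = 0.901). DESeq2 called it lower (−4.14, adjusted p = 0.00432), and limma-voom gave 0.74.

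The leading HoxB gene, Hoxb7, was at 0.224 to 124 CPM in Dnmt1cKO with a median of 55.9 (−0.85 ± 0.84, edgeR adjusted p = 0.644), within the Control range, and at 0.80 without Control 3. Of the 9 tested HoxB members, 2 had a log2 fold change above 0, Hoxb3 and Hoxb9, and 5 had one without Control 3. Dnmt1cKO 2 held nearly no HoxB RNA, 6 counts in all (1.35 CPM), against 585 to 2756 counts in the other Dnmt1cKO libraries. The same library had Hoxd13 at 211 CPM and Hoxa10 at 62.6 CPM, within or near the range of the other Dnmt1cKO libraries, and 24 of its 38 Hox genes were at 0. Its summed stromal markers, 7353 CPM, were the highest of the 8 Dnmt1cKO libraries, although Pdgfrb, Twist2 and Thy1 were at 0 in it, and the part of stromal RNA in its Hox levels was not tested.

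Genes that lie beside the clusters were described from a list of 20 flanking genes, 16 of them tested, and from Evx1 and Evx2, homeobox genes at the hind ends of HoxA and HoxD. None passed the edgeR test in either list. Of the flanking genes, 3 higher and 1 lower had an unadjusted p under 0.05. Calls by DESeq2 were 2 higher and 1 lower, and limma-voom made none. Evx1, next to Hoxa13, was at 1.48, 0, 0 and 0 CPM in the Controls and at 2.37 to 51.6 CPM in Dnmt1cKO (4.54 ± 1.54, edgeR adjusted p = 0.108). Every Dnmt1cKO library was above every Control for Evx1, as for 2.59% of all genes tested. Without Control 1, which left Controls at 0 alone, Evx1 was called (edgeR adjusted p = 0.0316), as were 657 genes higher over the whole table. Evx2, next to Hoxd13, was at 0 in all 4 Controls and at 0 to 2.11 CPM in Dnmt1cKO. DESeq2 called Evx1 higher (adjusted p = 0.00667), and limma-voom called neither Evx gene.

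The flanking genes with the lowest p were Hibadh, a mitochondrial dehydrogenase gene beyond HoxA, and Lnp, a gene beyond HoxD for a protein of the endoplasmic reticulum. Hibadh was at 21.3, 10.1, 0 and 5.69 CPM in the Controls and at 36.9 to 103 CPM in Dnmt1cKO (2.64 ± 0.87, edgeR adjusted p = 0.0950). Lnp was at 14.9, 0, 0 and 2.84 CPM in the Controls and at 27.4 to 51.9 CPM in Dnmt1cKO (2.996 ± 1.07, edgeR adjusted p = 0.128). In both genes every Dnmt1cKO library was above every Control, as for 2.59% of all genes tested. Both were picked for their low p, and in the library labelled Control 4 both lay under 8.53 CPM, the value of 3 counts there. Without Control 1, the highest Control in both, Hibadh stood at 3.49 (edgeR adjusted p = 0.0339) and Lnp at 6.88 (edgeR adjusted p = 0.00996). A gained call is not particular to these genes, since calls of higher genes over the whole table went from 132 to 657 without Control 1. DESeq2 called both with all libraries (adjusted p = 0.00613 and 0.0136).

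Hox proteins bind DNA with the cofactors of the Pbx, Meis and Pknox families. Of 9 such genes tested with edgeR, 1 fell, Pbx2, and none rose. DESeq2 also called 1 lower and none higher, and limma-voom called none. Pbx2 was at 106, 128, 323 and 640 CPM in the Controls and at 55.0 to 123 CPM in Dnmt1cKO (−1.93 ± 0.47, edgeR adjusted p = 0.0205), with overlap between Control 1 and the highest Dnmt1cKO library. Without the library labelled Control 4 the call was lost (−1.17, edgeR adjusted p = 0.150).

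The list of 24 Hox regulators held Cdx1, Cdx2 and Cdx4, which were at 0 in all libraries, and 21 tested genes of the Polycomb, Trithorax and insulator kinds. In the edgeR test 1 of the 21 fell, Jarid2, a partner of Polycomb repressive complex PRC2, and none rose. Calls by DESeq2 were 2 in each direction, and limma-voom made none. Jarid2 was at 81.4, 181, 103 and 791 CPM in the Controls and at 42.2 to 82.1 CPM in Dnmt1cKO (−2.09 ± 0.51, edgeR adjusted p = 0.0205), and without the library labelled Control 4 it was −0.78 (adjusted p = 0.330). The 2 called genes therefore rested on that library. Bmi1, a Polycomb gene, was at 25.1, 2.70, 0.754 and 11.4 CPM in the Controls and at 27.4 to 163 CPM in Dnmt1cKO (2.85 ± 0.85, edgeR adjusted p = 0.0615). Every Dnmt1cKO library was above every Control for Bmi1, as for 2.59% of all genes tested. Bmi1 was called in DESeq2 (2.54, adjusted p = 0.00838) and without Control 1 (4.23, edgeR adjusted p = 0.0165). In those settings 487 and 657 genes were called higher over the whole table, against 132 in the main test.

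Retinoic acid sets Hox expression along the axis, and of 15 genes of this pathway tested none passed the edgeR test, and an unadjusted p under 0.05 was found for 1 higher and 4 lower genes. Calls by DESeq2 were 4 lower genes, where it called 1030 lower over all 12761 genes, and limma-voom made none. Dhrs3, an enzyme that turns retinal back to retinol, was at 86.4, 113, 162 and 273 CPM in the Controls and at 24.2 to 68.7 CPM in Dnmt1cKO (−1.87 ± 0.54, edgeR adjusted p = 0.0528), below every Control in every library. Of all genes tested, 0.486% were below every Control in all Dnmt1cKO libraries. Rxrg, a nuclear receptor gene, was at 0 in all Controls and at 0 to 8.69 CPM in Dnmt1cKO. Of 12 other hind-body regulators tested, none passed the edgeR test, and an unadjusted p under 0.05 was found for 1 higher and 2 lower genes. Calls by DESeq2 were 1 in each direction, and limma-voom made none. Tbx3, a T-box gene, was at 153, 223, 605 and 367 CPM in the Controls and at 98.8 to 247 CPM in Dnmt1cKO (−1.06 ± 0.43, edgeR adjusted p = 0.178).

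Markers of other cells were read beside these levels. Summed epithelial markers were at 5017, 7854, 3786 and 25885 CPM in the Controls and at 4898 to 7959 CPM in Dnmt1cKO, and none of 14 passed the edgeR test, where DESeq2 called 2 lower and limma-voom none. Of 7 tested neural markers, 1 fell, Elavl3 (−3.97 ± 1.08, edgeR adjusted p = 0.0382). This call was lost without Control 3, the library labelled Control 4, or any of Dnmt1cKO 1, 2, 3, 5, 6 and 7 (edgeR adjusted p from 0.0513 to 0.266). None of 7 duct, 6 endothelial and 4 immune markers passed in edgeR, DESeq2 or limma-voom. An unadjusted edgeR p under 0.05 was found for 2 epithelial and 2 endothelial markers, all lower, for 1 duct marker in each direction and for 0 immune markers. Neural markers summed to 182 to 822 CPM in the Controls and 14.6 to 660 CPM in Dnmt1cKO. Of the stromal markers, 7 of 19 were lower at an unadjusted edgeR p under 0.05, and DESeq2 called 3 lower and limma-voom none. The part of these cells in the levels of Hox genes other than Hoxd13 was not tested beyond the stromal covariate, with which no Hox gene but Hoxd13 was called.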

How the data were processed

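The deposited table holds RSEM expected counts (estimated counts per gene) made by the authors, and the submitters' processing notes name RSEM 1.2.3, Bowtie 0.12.9, bcl2fastq 2.17.1.14 and mm10. The sources used here do not give mapping settings, annotation or use of strand. Of its genes, 38.5% had a fractional value, and values were rounded before count tests. Its 8 empty columns were not used. Per the labels, poly-A RNA was fragmented, primed with random hexamers and amplified, with no molecular identifiers mentioned, so intervals cover counting error only.

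Groups came from the genotype labels. Dnmt1cKO was compared with Control by the quasi-likelihood test of edgeR 4.0.16 in R 4.3.3 (genotype alone, TMM factors, robust dispersion, minimum count 10, minimum total 15), with Benjamini-Hochberg adjustment over all 12761 genes tested and a threshold of 0.05. The square root of the common dispersion was 0.984. CPM uses TMM-scaled totals, and SE is the log2 fold change divided by the square root of F. The script was tested on simulated data with less spread than these libraries and with changes placed in well-counted genes only. That run therefore checks the script and not how the test behaves at this spread or at low counts. Gene positions and transcript lengths came from GENCODE M21 (GRCm38), and promoter windows from RefSeq. Alternatives were RLE factors, library totals, other filters, DESeq2 1.42.0, voom in limma 3.58.1, blocks, a stromal covariate, non-robust dispersion and left-out libraries. The Hox genes and all gene lists were chosen with earlier results of these data known. Values in every library were given, by rule, for called Hox genes, Hoxd8 to Hoxd13, group 13, members with an unadjusted p under 0.05 and the highest member of each cluster, and in the lists for called genes or else the 2 with the lowest p. Results of some of these genes are not reported here.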

Additional observations from a re-analysis of the deposited data

Results flagged for a closer look

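The levels of the 27 tested Hox genes, and the share of Hoxd13 in HoxD counts, were screened in both groups for a library that stood apart from the others of its group, by the gap to its nearest neighbour as a share of the range. Of 56 series screened 15 had such a library. The threshold gives about 1 in 20 by chance for normally distributed values only. These levels hold many values of 0 and come from libraries of unlike depth, so the count cannot be compared with that share. In the Controls, Control 1 stood above the others for Hoxa3 (16.4 CPM), Hoxc10 (6.39 CPM), Hoxd1 (12.05 CPM) and Hoxd11 (0.738 CPM). Control 2 stood above them for Hoxb3 (6.07 CPM). Control 3 stood above them for Hoxa5 (18.1 CPM), Hoxb8 (145 CPM) and Hoxc4 (34.7 CPM). The library labelled Control 4 stood below the others for Hoxa9 (0 CPM against 58.3 CPM in the next lowest). In Dnmt1cKO, replicate 8 stood above the others for Hoxa7 (69.9 CPM), Hoxb6 (42.2 CPM) and Hoxd3 (31.1 CPM), replicate 7 for Hoxc4 (3.75 CPM) and replicate 6 for Hoxd11 (13.9 CPM). Dnmt1cKO 2 stood below the others for Hoxa13 (0.224 CPM against 30.5 CPM in the next lowest).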

How the results depend on the processing

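Hoxd13 kept its direction in all 24 alternatives and its call in 21, with adjusted p from 0.0048 to 0.479. It was 1.74 with RLE factors (adjusted p = 0.0501) and 1.86 in limma-voom (adjusted p = 0.106), and leaving out each library in turn gave 1.87 to 2.49. The count of Hox genes that rose was 0 with RLE factors and in limma-voom, and 1 to 2 with a library left out. The count that fell was 1 with RLE factors and in DESeq2 (Hoxb4), 1 with no filter (Hoxc11), and 0 to 1 with a library left out. Over all genes, 132 rose and 198 fell: 487 and 1030 in DESeq2, 7 and 25 in limma-voom, 45 and 2 without Control 3 and the library labelled Control 4, 60 to 657 and 36 to 494 with a library left out. The highest of these, 657 and 494, came without Control 1. The count that fell was 726 with RLE factors, 47 with library totals, and 13 without both Controls and Dnmt1cKO 2, an alternative added after seeing the data. The share of calls that were higher was 40%, 19% with RLE factors and 70.6% with library totals. The median log2 fold change of all genes was 0.22, 0.07 with RLE factors and 0.38 with library totals, and that of the Hox genes −0.67, −0.85 and −0.34. Hoxa10 ranked 2 in HoxA by median transcript length, added after seeing the data, and Hoxc8 ranked 2 in HoxC by share of counts. The cause of these shifts was not tested. At the depth of the library labelled Control 4, 3 counts stood for 8.53 CPM, so lower levels there rest on very few counts.

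A replicate block by the code in the descriptions gave Hoxd13 2.35 (adjusted p = 0.0303) and 72 genes that fell. A replicate block by the title number gave 2.14 (adjusted p = 0.479), 0 Hox genes that rose, and 34 genes that rose and 31 that fell. Neither number was found to pair the libraries: deviations of Controls and Dnmt1cKO libraries correlated at −0.05 to 0.06 for the same code (6 pairs) and −0.05 to 0.10 for the same title number (4 pairs), and 1 of 4 and 0 of 4 Controls correlated best with their own number.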
